A study of Mus musculus with 3 samples.

Results

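Macrophages take up glucose through carriers in the plasma membrane, trap it as glucose 6-phosphate and split it to pyruvate, which can leave the cell as lactate or enter mitochondria. Inflammatory activation by lipopolysaccharide (LPS) is known for raising glucose use in macrophages, and the uptake of apoptotic cells, called efferocytosis, brings in lipid, protein and sugar of other cells. The genes described here cover that route: the glucose carrier gene Slc2a1 (GLUT1), the hexokinase genes Hk1, Hk2 and Hk3, the phosphofructokinase genes Pfkl and Pfkp, Tpi1, Gapdh, the lactate dehydrogenase gene Ldha and the lactate exporter gene Slc16a3 (MCT4). They were chosen by name, 10 genes of the 20574 symbols in the deposited tables. Of these, 8 had a row in the tables, and Hk1 and Hk3 are not analysed here.

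The 3 libraries, 1 per condition, hold RNA of primary peritoneal macrophages of mice, with WT in their titles. Apoptotic cells were added to macrophages in an excess of 5 to 1 for 5 h, LPS from bacterial walls was given at 100 ng/ml for 5 h, or nothing was added. All were kept in DMEM, a glucose-containing medium, and apoptotic cells that had not been engulfed were rinsed off before the RNA was taken. The labels give no time for the untreated library, do not say which cells the apoptotic cells were, and give no mouse strain, age or number of mice. Treatment and time therefore cannot be told apart in the comparisons with the untreated library. Because each condition is 1 library, every difference below lies between libraries, has no replicate error and carries no p-value.

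Values are FPKM, fragments per kilobase of transcript per 1000000 mapped fragments, so levels of different genes can be set side by side within a library. They summed to 197222 with apoptotic cells, 200224 with LPS and 199881 in the untreated library. Depth is not stated. The spacing of the lowest values, which could be fitted only loosely, gave about 6.50, 5.84 and 6.35 reads for 1 FPKM on 2 kb of transcript in the same order. Many values are exactly 0, also for abundant genes: Eef1a1, a translation elongation factor, had a listed 0 in both treated libraries and 5641 FPKM in the untreated library. The apoptotic-cell, LPS and untreated libraries had a 0 for 18.6%, 21.9% and 38.6% of the genes that both others list above 0. A gene at 0 is given as listed at 0 and enters no ratio.

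Markers of cell types also differed between the libraries. Only 4 of 8 macrophage markers had a row (Csf1r, Cd14, Mrc1 and Fcgr1), and they summed to 744 FPKM in the apoptotic-cell library, 1.53 FPKM in the LPS library and 360 FPKM in the untreated library, with Csf1r and Cd14 listed at 0 with LPS and Mrc1 at 0 in the untreated library. The 10 T cell and thymocyte markers summed to 88.6, 1.95 and 31.0 FPKM in the same order. Lck was at 0 with apoptotic cells, 5 markers including Cd3e with LPS and 6 including Cd3e and Rag1 in the untreated library. Rag1 was the largest part of the apoptotic-cell sum, at 41.2 FPKM, against 0.679 FPKM with LPS. Cd3g and Dntt made up most of the untreated sum, at 12.6 and 13.5 FPKM, against 10.6 and 13.0 FPKM with apoptotic cells. The 8 B cell markers summed to 197, 163 and 649 FPKM, with Cd79a at 0 both with apoptotic cells and without treatment. Fcer2a was at 0 with LPS and 5 of them were at 0 without treatment. Most of the untreated sum was Ly6d, at 42.7, 73.9 and 563 FPKM in the same order. The 7 mast cell markers summed to 20.1, 10.2 and 103 FPKM, each library having 1 of them at 0. The 7 neutrophil markers with a row summed to 325, 496 and 118 FPKM, with Elane at 0 in every library and S100a9 and Ngp at 0 with LPS. Most of each sum came from S100a8 (116, 222 and 48.1 FPKM) and Lcn2 (187, 272 and 64.1 FPKM). Mmp8 did not follow that order, at 16.0, 0.548 and 2.48 FPKM. The 7 mesothelial and fibroblast markers summed to 2.45, 1.13 and 22.5 FPKM, with Upk3b at 0 with apoptotic cells and 5 including Msln and Col1a1 at 0 with LPS, and the 2 erythroid markers with a row to 0, 0 and 0.315 FPKM. Listed 0s enter these sums as 0, although a listed 0 is not read as absence. Most of the macrophage sum in the other libraries was Csf1r and Cd14, so the low sum with LPS rests on their listed 0s. The part of these markers in the differences below was not tested. In bulk RNA, fewer cells of a type, less RNA per cell and a listed 0 of an RNA that was present cannot be told apart.

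The start regions of 5 of the genes are shown because these genes mark the main differences: Slc2a1 and Hk2 were lower by 2-fold or more with apoptotic cells than with LPS, Pfkl and Tpi1 higher by 2-fold or more, and Ldha had the largest ratio of apoptotic cells over no treatment among the members. Each window runs 5′ to 3′ on the gene's strand from 250 bases before to 50 bases after the RefSeq start (GRCm38.p6, the mm10 build). Capitals mark ACGTG on either strand (CACGT when read on the printed strand). ACGTG is a form of the core of the hypoxia response element, to which hypoxia-inducible factors are known to bind. ACGTG also lies inside CACGTG, the E-box of Myc-like factors. The form GCGTG was not counted or marked.
Slc2a1, chr4:119108495-119108794, plus strand: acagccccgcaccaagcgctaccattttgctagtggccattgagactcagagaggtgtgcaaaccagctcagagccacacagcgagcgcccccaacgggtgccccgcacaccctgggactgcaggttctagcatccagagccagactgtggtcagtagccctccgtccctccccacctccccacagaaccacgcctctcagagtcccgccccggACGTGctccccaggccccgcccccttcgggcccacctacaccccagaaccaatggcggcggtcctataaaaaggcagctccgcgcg
Hk2, chr6:82774405-82774704, minus strand: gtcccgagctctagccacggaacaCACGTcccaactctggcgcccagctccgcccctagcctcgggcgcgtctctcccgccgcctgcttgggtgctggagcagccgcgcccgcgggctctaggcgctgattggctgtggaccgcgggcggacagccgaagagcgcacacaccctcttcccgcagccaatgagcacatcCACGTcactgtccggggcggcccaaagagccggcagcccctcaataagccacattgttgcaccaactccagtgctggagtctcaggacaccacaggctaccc
Pfkl, chr10:78009758-78010057, minus strand: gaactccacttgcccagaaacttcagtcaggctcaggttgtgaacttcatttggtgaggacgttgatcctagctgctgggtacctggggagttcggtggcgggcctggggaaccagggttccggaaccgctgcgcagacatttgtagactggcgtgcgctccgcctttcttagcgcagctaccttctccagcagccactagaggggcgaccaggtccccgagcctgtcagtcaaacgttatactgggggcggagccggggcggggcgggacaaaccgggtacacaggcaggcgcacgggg
Tpi1, chr6:124814109-124814408, minus strand: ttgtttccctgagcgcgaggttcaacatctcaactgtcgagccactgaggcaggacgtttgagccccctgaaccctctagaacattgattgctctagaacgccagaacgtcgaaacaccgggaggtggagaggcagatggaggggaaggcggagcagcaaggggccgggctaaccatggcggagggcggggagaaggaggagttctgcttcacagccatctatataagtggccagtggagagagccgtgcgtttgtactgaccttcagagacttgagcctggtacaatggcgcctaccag
Ldha, chr7:46845554-46845853, plus strand: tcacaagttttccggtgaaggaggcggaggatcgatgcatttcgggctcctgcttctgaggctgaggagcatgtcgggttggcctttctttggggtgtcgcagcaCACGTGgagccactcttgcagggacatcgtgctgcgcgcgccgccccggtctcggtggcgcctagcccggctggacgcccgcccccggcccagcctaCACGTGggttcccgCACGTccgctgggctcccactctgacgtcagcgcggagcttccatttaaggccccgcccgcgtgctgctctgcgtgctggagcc

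ACGTG stood at 1 place in the Slc2a1 window, its first base 36 bases before the start, at 2 places in that of Hk2 and at 3 places in that of Ldha, of which 2 were CACGTG. The sequence shown for Ldha is 1 of its 2 windows, and the other, further downstream, held none. The windows of Pfkl and Tpi1 held no ACGTG. The printed Pfkl window does hold GCGTG, the form that was not counted or marked. The capitals thus do not tell which windows lack the core. Of all 10 genes, matched to 12 windows, 7 had ACGTG in at least 1 window: Slc2a1, Hk1, Hk2, Hk3, Gapdh, Ldha and Slc16a3. Over all genes with a window 21.8% did, and Ldha was the only member with CACGTG, which 8.09% of all genes had. The members' windows were 49.0% to 73.3% G and C, against a median of 52.7% over all windows, and among the 19466 windows in that range 23.2% held ACGTG. These matches describe letters, not bound sites.

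Together the 8 measured genes stood at 1927 FPKM in the apoptotic-cell library, 1289 FPKM in the LPS library and 837 FPKM in the untreated library, or 0.977%, 0.644% and 0.419% of all FPKM. Gapdh and Ldha made up 87.6%, 80.4% and 85.1% of those sums, so the sums mostly report that pair. Of the 8 genes, Hk2, Pfkl and Pfkp were listed at 0 in the untreated library. In the apoptotic-cell library the order of levels was Gapdh, Ldha, Tpi1, Pfkl, Slc2a1, Slc16a3, Hk2 and Pfkp. With LPS it was Ldha, Gapdh, Slc2a1, Tpi1, Slc16a3, Hk2, Pfkp and Pfkl, and the untreated order was Gapdh, Ldha, Tpi1, Slc2a1 and Slc16a3. Neighbours in these orders, such as Gapdh and Ldha with LPS or Slc16a3 and Hk2 with LPS, lay close, and 1 library gives no spread by which to separate them.

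**Figure D1:**
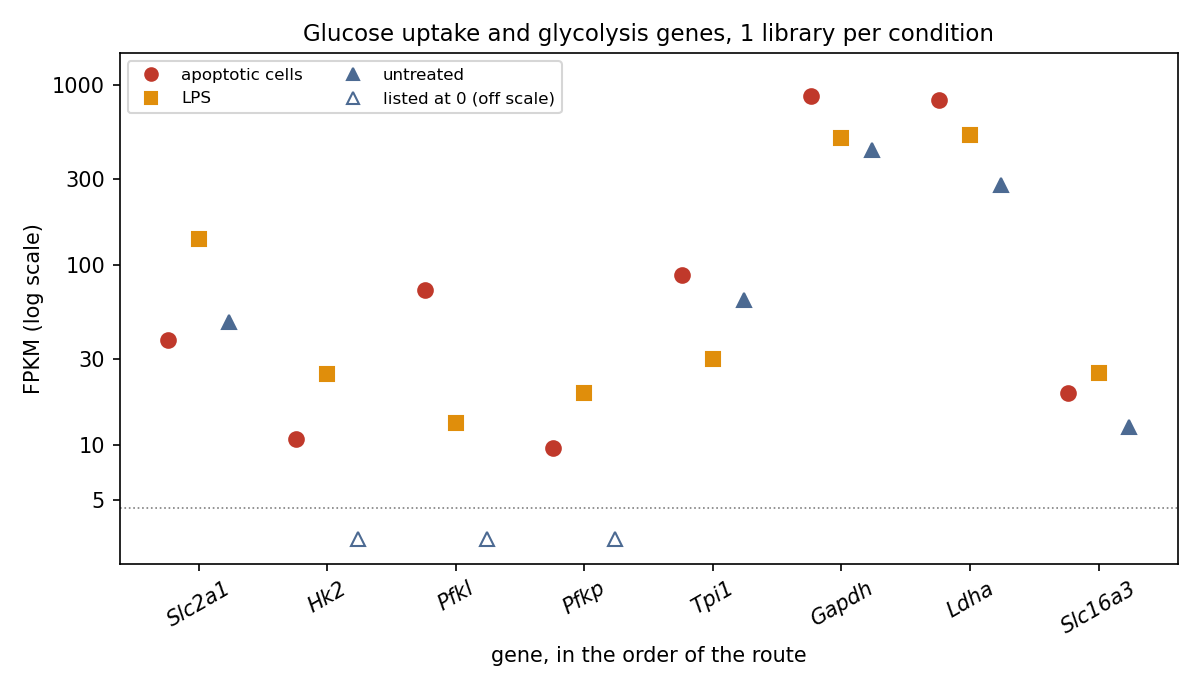
FPKM of the 8 genes with values (vertical, log scale) in the apoptotic-cell, LPS and untreated libraries, 1 point per library, in the order of the route from glucose entry to lactate exit. Hk2, Pfkl and Pfkp were listed at 0 in the untreated library and are drawn as open triangles under the dotted line, and Slc2a1 stood highest with LPS while Pfkl, Tpi1, Gapdh and Ldha stood highest with apoptotic cells.

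The genes of glucose entry and trapping stood higher with LPS than with apoptotic cells. Slc2a1, the main glucose carrier of many cell types, lies on chromosome 4 from 119108711 to 119137983. It stood at 38.6 FPKM in the apoptotic-cell library, 139 FPKM in the LPS library and 48.0 FPKM in the untreated library. LPS was the high library by a wide margin and the others lay near each other. The log2 ratio of (FPKM + 1), the scale of all ratios below, was -0.31 for apoptotic cells over untreated, 1.52 for LPS over untreated and -1.83 for apoptotic cells over LPS. By level Slc2a1 ranked 794 of 7970 genes above 0 with apoptotic cells, 226 of 7844 with LPS and 565 of 6747 without treatment. Only 2.50% of the 4599 genes compared had a ratio of apoptotic cells over LPS as low or lower.

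Hk2, the inducible hexokinase that phosphorylates glucose and can sit on mitochondria (chromosome 6, 82725025 to 82774454), stood at 10.8 FPKM in the apoptotic-cell library and 24.95 FPKM in the LPS library, and was listed at 0 in the untreated library. Its log2 ratio of apoptotic cells over LPS was -1.14, the same direction as that of Slc2a1, and with a pseudocount of 5 in place of 1 it was -0.92.

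The committed step, run by phosphofructokinase, went both ways between its genes. Pfkl encodes the liver-type subunit, which is common in blood cells, and Pfkp the platelet-type subunit, and subunits of both types can join in 1 enzyme. Pfkl (chromosome 10, 77986947 to 78010083) stood at 73.1 FPKM in the apoptotic-cell library and 13.3 FPKM in the LPS library, and Pfkp (chromosome 13, 6579768 to 6648777) at 9.61 and 19.5 FPKM in the same order. Pfkl was thus the higher of the pair with apoptotic cells and the lower with LPS. The ratio of Pfkl over Pfkp FPKM was 7.60 with apoptotic cells and 0.679 with LPS, and Pfkl made up 88.4% and 40.4% of their sum. The log2 ratios of apoptotic cells over LPS were 2.38 for Pfkl and -0.95 for Pfkp, and that of Pfkp reached -1.34 with median-of-ratios scaling. Pfkl had the largest ratio of the 8, with 1.87% of all genes compared at or above it. Both were listed at 0 in the untreated library, so neither can be placed against it. Pfkm, the muscle-type gene, was listed at 0, 1.02 and 0 FPKM with apoptotic cells, LPS and no treatment.

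In the splitting and oxidation steps, levels were highest with apoptotic cells. Tpi1, the triose phosphate isomerase gene (chromosome 6, 124810586 to 124814296), stood at 87.9 FPKM in the apoptotic-cell library, 30.2 FPKM in the LPS library and 64.3 FPKM in the untreated library. LPS was the low library. The log2 ratios were 0.45 for apoptotic cells over untreated, -1.06 for LPS over untreated and 1.51 for apoptotic cells over LPS. The difference of LPS from the untreated library was under 2-fold with median-of-ratios scaling (-0.45), upper-quartile scaling (-0.68) or a pseudocount of 5.

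Gapdh, whose enzyme makes the NADH of the route and which is often used as a reference gene, lies close by on chromosome 6 from 125161715 to 125166467. It stood at 862 FPKM in the apoptotic-cell library, 508 FPKM in the LPS library and 436 FPKM in the untreated library. In FPKM as listed, the apoptotic-cell library was high and the others lay near each other. The log2 ratios were 0.98 for apoptotic cells over untreated, 0.22 for LPS over untreated and 0.76 for apoptotic cells over LPS. This placing of LPS depended on the scaling. LPS over untreated was 0.843 with median-of-ratios scaling and 0.609 with upper-quartile scaling. Apoptotic cells over LPS was 0.355 and 0.435 in the same order. Under either scaling LPS lay nearer to the apoptotic-cell library than to the untreated library. Gapdh is also the member with most copies: 163 other annotated genes, 153 of them pseudogenes, match its transcript at 90% identity or more over at least 500 bases, and how reads of such copies were counted is not given in the sources used here. Ldha had 10 such copies, all pseudogenes, Tpi1 and Pfkp 1 each and the other members 0.

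Ldha encodes the subunit of lactate dehydrogenase that favours turning pyruvate to lactate, which restores NAD+ for the Gapdh step. The gene (chromosome 7, 46841475 to 46855627) stood at 825 FPKM in the apoptotic-cell library, 529 FPKM in the LPS library and 276 FPKM in the untreated library, so both treated libraries were above the untreated library. The log2 ratios were 1.58, 0.94 and 0.64 for apoptotic cells over untreated, LPS over untreated and apoptotic cells over LPS. Its rank by level was 39 with apoptotic cells, 65 with LPS and 83 without treatment. Ldha FPKM over Slc2a1 FPKM was 21.4 with apoptotic cells, 3.79 with LPS and 5.75 without treatment. The carrier and the lactate-forming enzyme thus did not keep a fixed proportion across the libraries.

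Slc16a3, the carrier that moves lactate out of glycolytic cells (chromosome 11, 120948480 to 120960868), stood at 19.5 FPKM in the apoptotic-cell library, 25.3 FPKM in the LPS library and 12.7 FPKM in the untreated library. Both treated libraries were above the untreated library, with log2 ratios over it of 0.58 for apoptotic cells and 0.94 for LPS, and the ratio of apoptotic cells over LPS was -0.35.

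For apoptotic cells against no treatment, Ldha was at least 2-fold higher, 1 of the 5 members with values in both libraries, and 0 were lower, where 12.4% of the 3369 genes compared were at least 2-fold higher and 16.4% lower. The median of the 5 was 0.58, beside -0.13 for all genes. With each of the 3 rescalings Gapdh passed 2-fold as well. For LPS against no treatment, Slc2a1 was at least 2-fold higher and Tpi1 at least 2-fold lower, beside 8.51% and 26.2% of 3421 genes. The median of the 5 was 0.94, beside -0.40. Both comparisons share the untreated library and the same 5 genes, and read against those shares, a count of 1 of 5 is not a result about the members. Median-of-ratios scaling moved the median of all genes by 0.51 for LPS over untreated and turned the split of 291 higher and 896 lower genes to 647 and 450. Under it and under upper-quartile scaling, 3 of the 5 members were at least 2-fold higher with LPS, namely Slc2a1, Ldha and Slc16a3, and 0 were lower. Of the 3421 genes, 647 were higher and 450 lower under the former, and 482 and 588 under the latter.

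All 8 genes were above 0 with both apoptotic cells and LPS, and this comparison places the most members. Pfkl and Tpi1 were at least 2-fold higher with apoptotic cells, beside 15.7% of 4599 genes, and Slc2a1 and Hk2 at least 2-fold lower, beside 5.54%. The remaining 4 differed by less than 2-fold on the scale used. Of these, Pfkp differed 2.03-fold in plain FPKM and passed 2-fold with a pseudocount of 0.1 (-1.02), median-of-ratios scaling (-1.34) or upper-quartile scaling (-1.26). The median of the 8 was 0.14, beside 0.32 for all genes, and the members lay on both sides of it. Median-of-ratios scaling moved the median of all genes by -0.33 and turned the split of 722 higher and 255 lower genes to 419 and 443. No member changed direction under any of the 3 rescalings in any of the 3 comparisons.

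**Figure D2:**
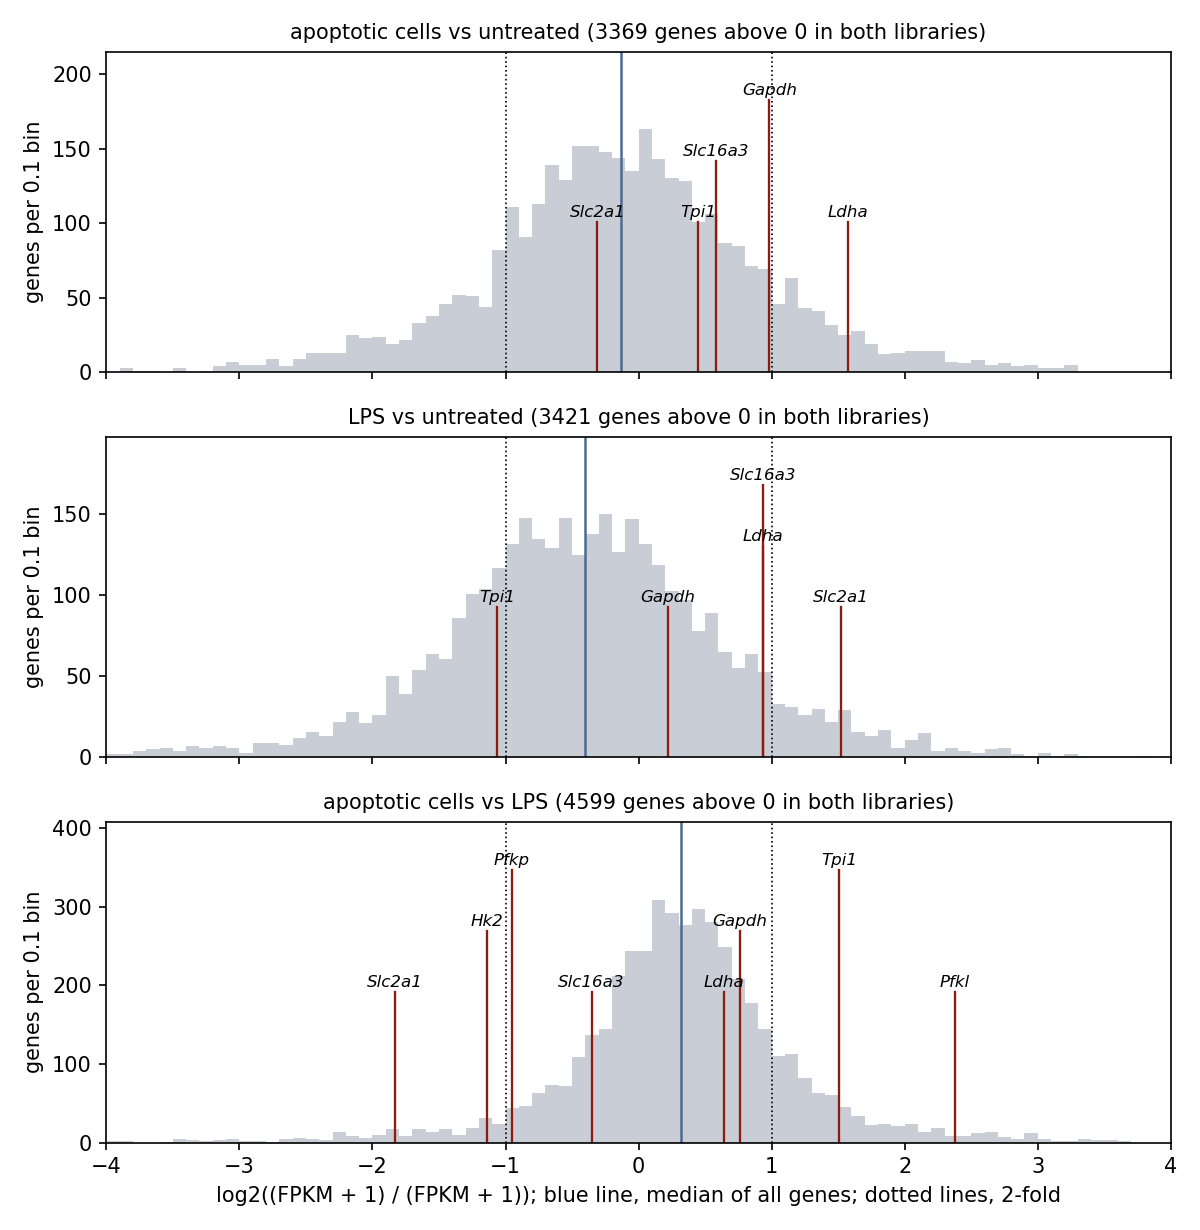
Number of genes per 0.1 bin of the log2 ratio of (FPKM + 1), for genes above 0 in both libraries with a mean of at least 1 FPKM, in the 3 comparisons. Red lines mark the members, the blue line the median of all genes and dotted lines 2-fold, and in the lowest panel the members spread from -1.83 (Slc2a1) to 2.38 (Pfkl) around a median of all genes of 0.32.

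Other enzymes of the route were read from a list of 19, of which 16 had a row, and Aldoa, Eno1 and Pkm are not analysed here. For this and the later lists, counts are read beside the shares of all genes at least 2-fold higher and lower. These were 12.4% and 16.4% for apoptotic cells over untreated and 8.51% and 26.2% for LPS over untreated. For apoptotic cells over LPS they were 15.7% and 5.54%. Against no treatment, 4 of the enzymes could be compared, of which 2 were higher by 2-fold or more with apoptotic cells and 1 lower. Pgam1, the phosphoglycerate mutase of most tissues, stood at 255 FPKM in the apoptotic-cell library and 93.1 FPKM in the untreated library (1.44), and Ldhb, the lactate dehydrogenase subunit that favours pyruvate, at 7.57 and 2.63 FPKM (1.24). The muscle mutase gene Pgam2 was lower with apoptotic cells, at 0.450 against 3.46 FPKM (-1.62). With LPS, 0 of 5 were at least 2-fold higher than without treatment and 1 was lower, again Pgam2, at 0.459 against 3.46 FPKM. Between apoptotic cells and LPS, 2 of 7 were at least 2-fold higher and 0 lower: Ldhb at 7.57 against 1.42 FPKM (1.83) and Bpgm, the red-cell bisphosphoglycerate mutase gene, at 2.85 against 0.171 FPKM (1.72). Bpgm, listed at 0 without treatment, reached a mean of 1 FPKM only through the apoptotic-cell library, and Pgam2 only through the untreated library, so their counts in these comparisons rest on the library where each was high. Gpi1, which makes fructose 6-phosphate, was listed at 0 with apoptotic cells, at 99.2 FPKM with LPS and at 164 FPKM without treatment. Ldhb stayed far below Ldha, whose FPKM was 109, 373 and 105 times that of Ldhb with apoptotic cells, LPS and no treatment.

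**Figure D3:**
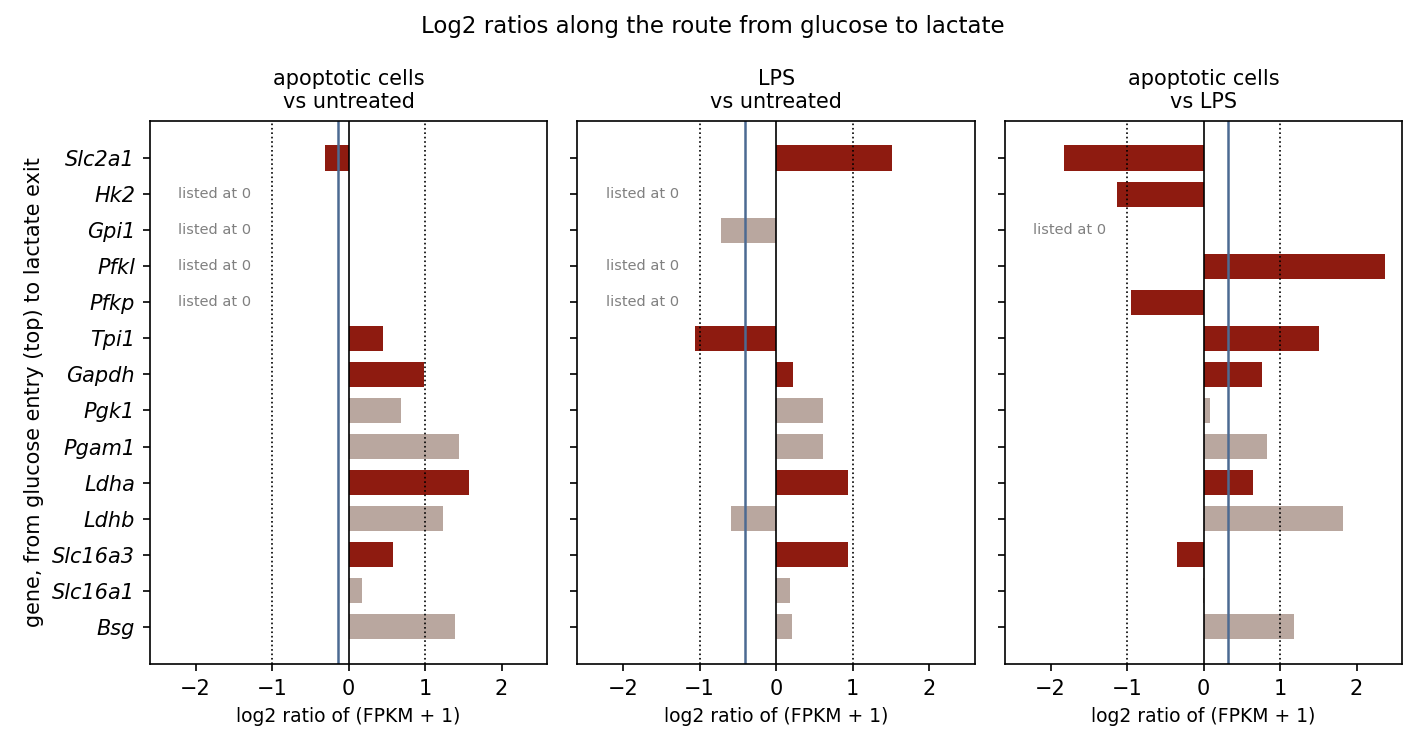
Log2 ratio of (FPKM + 1) for genes along the route, from glucose entry at the top to lactate exit at the bottom, in the 3 comparisons. Dark bars are members, light bars other genes of the route, the blue line is the median of all genes and dotted lines are 2-fold, and with apoptotic cells over LPS the top of the route (Slc2a1, Hk2) lies to the left and Pfkl and Tpi1 to the right.

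Among other carriers, 15 of 16 listed genes had a row. With apoptotic cells over untreated, 2 of 5 were at least 2-fold higher and 2 lower. Bsg, the membrane partner that carries lactate exporters to the surface, stood at 260 FPKM in the apoptotic-cell library, 114 FPKM in the LPS library and 98.4 FPKM in the untreated library, and so was highest with apoptotic cells, unlike Slc16a3. The intracellular sugar carrier gene Slc2a8 stood at 6.10, 0.625 and 0.982 FPKM in the same order. Emb, another partner of monocarboxylate carriers, was highest without treatment, at 8.60, 3.46 and 24.4 FPKM, as was Slc2a3 (GLUT3), a glucose carrier of high affinity, at 0.180, 0.828 and 2.93 FPKM. With LPS over untreated, Slc2a3 and Emb were the 2 of 5 at least 2-fold lower and 0 were higher. With apoptotic cells over LPS, Slc2a8, Bsg and Emb were the 3 of 5 at least 2-fold higher and 0 were lower. The median of these 5 was 1.11, and 0.774 with median-of-ratios and 0.838 with upper-quartile scaling. Under either scaling, fewer than 3 were thus at least 2-fold higher. Slc2a6 (GLUT6) was listed at 181 FPKM with LPS and at 0 in both other libraries, above Slc2a1 in that library. Slc2a8 and Slc2a3 reached a mean of 1 FPKM only through the library where each was high. The lactate and pyruvate carrier gene Slc16a1 (MCT1) stood at 8.48, 8.55 and 7.38 FPKM, so its level was near the same in the 3 libraries. Slc16a1 and Pgk1 are shown in the plot along the route as further steps and were chosen after their values were seen.

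Of 11 genes for the fructose 2,6-bisphosphate enzymes that tune phosphofructokinase, for gluconeogenic steps and for arrestins that restrain glucose uptake, 9 had a row, and Pfkfb3 is not analysed here. Arrdc4, one of those arrestins, stood at 21.8 FPKM in the apoptotic-cell library, 49.4 FPKM in the LPS library and 6.73 FPKM in the untreated library, with log2 ratios over untreated of 1.56 for apoptotic cells and 2.71 for LPS. Its relative Txnip, which removes GLUT1 from the surface, was listed at 0, 18.6 and 85.4 FPKM in the same order, a log2 ratio of -2.14 for LPS over untreated. The arrestin genes thus went opposite ways with LPS, and with apoptotic cells Txnip cannot be placed. G6pc3, a glucose 6-phosphatase, stood at 24.4, 9.91 and 22.8 FPKM and was low with LPS. Pck2, the mitochondrial phosphoenolpyruvate carboxykinase gene, stood at 6.97 FPKM in the apoptotic-cell library and 12.8 FPKM in the LPS library and was listed at 0 without treatment. In this list 1 of 3 was at least 2-fold higher and 0 lower with apoptotic cells over untreated, 1 of 4 higher and 2 lower with LPS over untreated, and 1 of 4 higher and 1 lower with apoptotic cells over LPS. Pfkfb4 was listed at 8.39 FPKM without treatment and at 0 in both treated libraries.

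At the entry of pyruvate into mitochondria all 14 listed genes had a row. With apoptotic cells, 0 of 7 genes differed from the untreated library by 2-fold in either direction. With LPS, 1 of 5 was at least 2-fold higher than untreated and 2 were lower, and with apoptotic cells over LPS 3 of 9 were higher and 1 lower. Pdk1 and Pdk2, kinases that switch pyruvate dehydrogenase off, were the low genes with LPS: Pdk1 stood at 5.01 FPKM in the apoptotic-cell library, 0.834 FPKM in the LPS library and 7.76 FPKM in the untreated library, and Pdk2 at 5.14, 0.496 and 3.88 FPKM. Pcx, the pyruvate carboxylase gene, was high with LPS, at 0.821, 3.43 and 0.625 FPKM, and reached a mean of 1 FPKM only through that library. Brp44, the older symbol of the pyruvate carrier gene Mpc2, stood at 72.2 FPKM in the apoptotic-cell library and 29.4 FPKM in the LPS library and was listed at 0 without treatment, while Brp44l (Mpc1) was listed at 115 FPKM with LPS and at 0 in both other libraries.

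**Figure D4:**
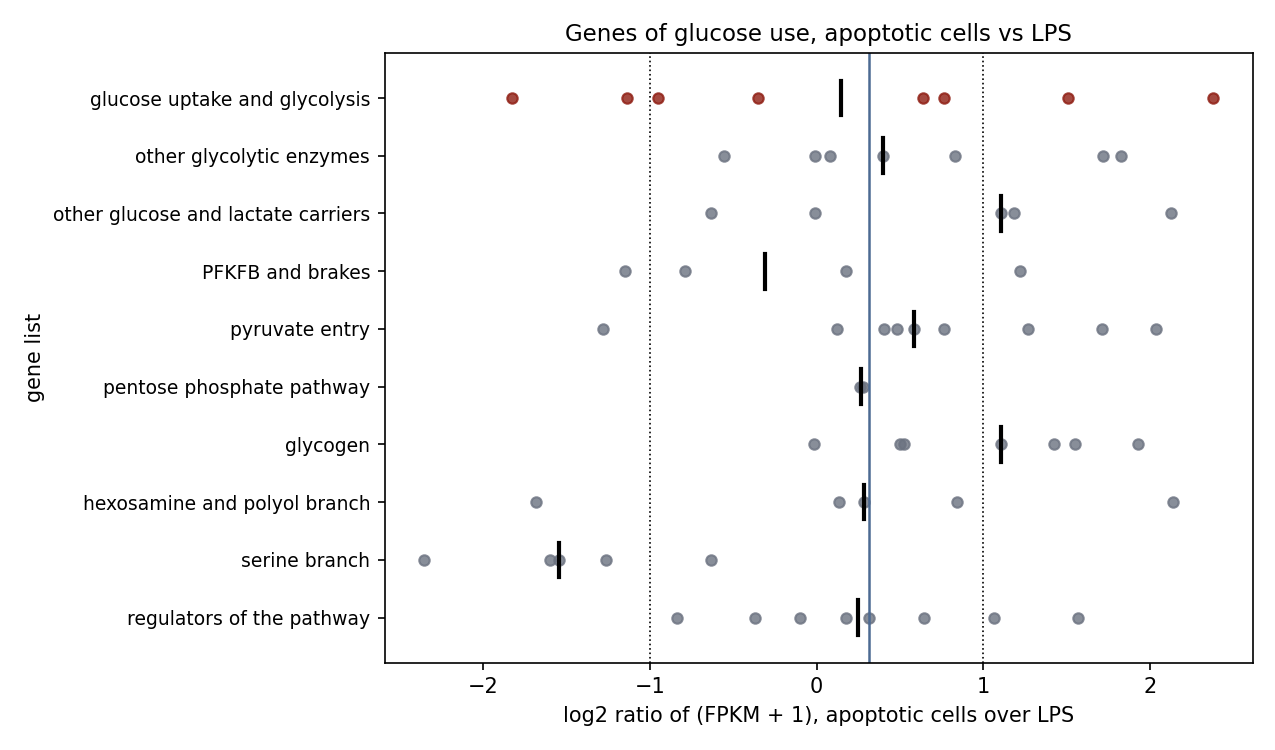
Log2 ratio of (FPKM + 1) of apoptotic cells over LPS for genes of glucose use, 1 point per gene above 0 in both libraries with a mean of at least 1 FPKM, by list, with the list's median as a black bar. The blue line is the median of all genes at 0.32, with the glucose uptake and glycolysis genes on both sides of it, and dotted lines are 2-fold. At 2-fold or more in FPKM as listed, 4 of 7 glycogen genes lie to the right, beside 15.7% of all genes. With median-of-ratios or upper-quartile scaling, fewer than 4 did. To the left lie 4 of 5 serine branch genes, beside 5.54%.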

How the data were processed

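The members and gene lists were chosen with earlier results of these data known, so no count over them is independent support. The deposited values were taken as FPKM, although the labels give no unit. Per the submitters' processing notes the authors used tools that include cutadapt 1.14, TopHat2 2.1.0 and Cufflinks 2.2.1 on the mm10 build. The lowest values were also set against whole numbers of reads. Within 0.08 of a whole number lay 32% to 37% of them when length was used and 22% to 25% when it was not. These are the best fits over many step sizes, and with length also over many length offsets. By chance a fixed step gives 16%, so both gaps may be overstated and are weak support for the unit. No options, annotation or strandedness being stated in the processing notes, reads of genes overlapping on opposite strands cannot be separated. Such genes overlap exons of Slc2a1, Pfkp, Tpi1 and Gapdh. The steps of the lowest values are too loose to give back whole reads, so no count test or interval was made.

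Ratios are log2((FPKM + 1) / (FPKM + 1)), which understates differences of low genes, for genes above 0 in both libraries whose mean over the 3 libraries is 1 FPKM or more. At least 2-fold on that scale was counted. The calculation was tested on simulated data. These had counting noise only, without differences between libraries or listed 0s of abundant genes. That run checks the arithmetic and does not bear on how firm the 2-fold counts are. The 9 other lists hold 110 genes, 90 with a row after older symbols were matched through RefSeq synonyms. Of the pathway and marker genes first listed, 2 were left out and are not reported here. Named genes are all members, up to 4 per list by size of ratio, and abundant genes listed at 0. Pfkm, Pfkfb4, Slc16a1 and Pgk1 were named outside this rule, after their values were seen. Coordinates are from GENCODE M21, start regions from RefSeq (GRCm38.p6), copies from blastn 2.17.0. A planned comparison of protein sequences was not made. Alternatives were pseudocounts, filters, fold thresholds, 3 rescalings, a listed 0 as a value, genes above 0 in all 3 libraries and, added after seeing the data, ratios minus the median of all genes and a 4-fold threshold for the members.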

Additional observations from a re-analysis of the deposited data

How the results depend on the processing

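Every library stands alone, so library and treatment cannot be told apart, and no replicate can be left out. No paired analysis was possible because each condition has 1 library. Depth is known only roughly, so no counting interval is given.

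No called member ratio changed sign under any alternative run, and of 108 member ratios recomputed with other pseudocounts, rescalings or the median of all genes taken off, 69 moved by 0.3 log2 or less. Members at least 2-fold apart, 1 for apoptotic cells over untreated, 2 for LPS over untreated and 4 for apoptotic cells over LPS, numbered 4, 5 and 4 with a listed 0 as a value, 2, 4 and 7 at 1.5-fold, and 0, 0 and 1 at 4-fold. These are to be read beside the counts of all genes under the same settings, given in the next paragraph. The first count was 2 with each rescaling and relative to the median of all genes. The second was 1 with a pseudocount of 5, and 3 with median-of-ratios or upper-quartile scaling or relative to that median. The third was 5 with these last 3 settings and with a pseudocount of 0.1, and 3 with a pseudocount of 5. It was 2 over genes above 0 in all 3 libraries, which leaves out Hk2, Pfkl and Pfkp.

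All genes at least 2-fold higher and lower, in the order apoptotic cells over untreated, LPS over untreated and apoptotic cells over LPS, numbered 418 and 554, 291 and 896, and 722 and 255. These are of 3369, 3421 and 4599 genes compared, and taking a listed 0 as a value adds genes to those. They were 235 and 228, 164 and 321, and 278 and 155 with a pseudocount of 5, and 2682 and 1378, 2605 and 1674, and 1741 and 1423 with a listed 0 as a value. At 1.5-fold they were 746 and 1021, 543 and 1461, and 1537 and 496, and at 4-fold 96 and 143, 68 and 194, and 148 and 90. Upper-quartile scaling gave 482 and 588 for LPS over untreated and 458 and 391 for apoptotic cells over LPS, median-of-ratios scaling 647 and 450, and 419 and 443, and subtracting the median of all genes 535 and 485, and 412 and 419. With a mean of at least 5 FPKM, 268 and 429 genes were lower in the first and second comparison, and 398 higher and 163 lower in the third. Over genes above 0 in all 3 libraries, 464 were higher in the third.

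The median log2 ratio of all listed genes of glucose use other than the members was -0.32 for LPS over untreated and 0.219, 0.002, 0.1376 and 0.0844 with median-of-ratios scaling, upper-quartile scaling, a listed 0 as a value and the median of all genes taken off, so it has no stable direction. For apoptotic cells over LPS it was 0.36, and 0.0044 and 0.041 with median-of-ratios scaling and the median taken off. The cause was not tested.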

Other observations

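The serine branch draws 3-phosphoglycerate off glycolysis. In it, 4 of 5 genes were lower by 2-fold or more with apoptotic cells than with LPS and 0 higher. Of 4599 genes, 5.54% were lower and 15.7% higher. The list median was -1.55, beside 0.32 for all genes. Phgdh, its first enzyme, stood at 26.7 FPKM in the apoptotic-cell library, 83.2 FPKM in the LPS library and 109 FPKM in the untreated library, and Mthfd2, a mitochondrial folate enzyme, at 21.9, 116 and 91.9 FPKM. Psat1 stood at 26.2, 78.5 and 35.6 FPKM, and Shmt2 at 24.4 and 60.0 FPKM with apoptotic cells and LPS and was listed at 0 without treatment. Against no treatment, 2 of 4 were at least 2-fold lower and 0 higher with apoptotic cells, and 0 of 4 lower and 1 higher with LPS.

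Glycogen genes lay the other way. With apoptotic cells over LPS, 4 of 7 were at least 2-fold higher and 0 lower, beside 15.7% and 5.54% of 4599 genes. The list median was 1.103, beside 0.32 for all genes. With median-of-ratios scaling it was 0.742, beside -0.0125 for all genes, and with upper-quartile scaling it was 0.812. Under either scaling, fewer than 4 of the 7 were thus at least 2-fold higher. Of the 4599 genes, 419 and 458 were then at least 2-fold higher in the same order. The list median was 0.521 over genes above 0 in all 3 libraries. That setting leaves out Gbe1 and Phkg2, 2 of the 4 higher genes, both listed at 0 without treatment. The glycogen phosphorylase gene Pygl stood at 20.6 FPKM in the apoptotic-cell library, 4.68 FPKM in the LPS library and 4.63 FPKM in the untreated library, and Pygb, another phosphorylase gene, at 17.8, 6.01 and 17.5 FPKM. The branching enzyme gene Gbe1 stood at 108 and 36.4 FPKM with apoptotic cells and LPS and was listed at 0 without treatment. Over untreated, 1 of 5 glycogen genes was at least 2-fold higher and 0 lower with apoptotic cells, and 0 of 6 higher and 2 lower with LPS.

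Of 9 pentose phosphate genes, 5 had a row and 2, G6pdx and Rpia, were above 0 with a mean of at least 1 FPKM in each comparison. G6pdx, the entry enzyme, stood at 52.7, 43.8 and 22.4 FPKM with apoptotic cells, LPS and no treatment and was the 1 of 2 at least 2-fold higher with apoptotic cells than untreated, while 0 of 2 differed by 2-fold in the other comparisons. In the hexosamine and polyol list, Gfpt2, which makes glucosamine 6-phosphate, stood at 1.78, 7.95 and 2.08 FPKM in the same order. The fructokinase gene Khk stood at 9.86 and 1.47 FPKM with apoptotic cells and LPS and was listed at 0 without treatment. Gfpt2 and Khk were the 1 lower and 1 higher gene of 5 with apoptotic cells over LPS. Khk reached a mean of 1 FPKM only through the apoptotic-cell library, so its count rests on the library where it was high. Of this list, 0 of 2 differed by 2-fold with apoptotic cells over untreated and 1 of 2, Gfpt2, was higher with LPS over untreated. Of 15 regulators, 11 had a row and Hif1a is not analysed here. Epas1, a hypoxia-inducible factor gene, stood at 6.66, 1.58 and 4.07 FPKM, and Vhl, whose product marks such factors for destruction, at 3.60, 4.95 and 12.5 FPKM. Regulators at least 2-fold higher numbered 2 of 8 with apoptotic cells over LPS, Epas1 and Akt1, with 0 lower. Vhl was the 1 lower gene of 4 with apoptotic cells and of 5 with LPS over untreated, with 0 higher in both.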
